A study of Mus musculus with 32 samples.

Results

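Serpina3n, Lcn2 and 8 other genes of the acute phase response and its cytokine receptors (Saa3, Hp, Orm1, Lbp, Osmr, Socs3, Il1r1 and Il4ra) were followed in mouse hearts after social stress. The 10 genes were found by their names in the array annotation, out of 27532 genes tested, and were measured by 11 probes. All 10 passed the filter on dim probes. The set was put together because Serpina3n and Lcn2 were higher in stressed hearts, so their differences between stressed and control hearts are given as a description, with no test, whereas the other 8 genes keep theirs.

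The hearts came from 32 mice of strain C57BL/6, 4 in each of 8 groups, and the RNA of each was run on its own 1-colour Agilent array. Stressed mice were held in a wire mesh box in the cage of an aggressor mouse for 6 hours a day, with repeated short attacks, over 5 or 10 days, and were then left to rest. They formed 4 conditions, named by the days of exposure (T) and of rest (R), namely T5R1 (5 and 1), T5R10 (5 and 10), T10R1 (10 and 1) and T10R42 (10 and 42). Each condition had its own controls, mice of the same strain that sat in such boxes in a big cage that held no aggressor. No allele, drug or surgery was named for any group, and age and sex were not given in the sources used here. RNA came from whole heart tissue, and 9 of 9 cardiomyocyte markers, among them Myh6, Tnnt2 and Actc1, were well above background on all 32 arrays. Per array, 28792 to 40672 probes were well above background, and the 75th percentile of the signal was 237.2 to 498.9. Each condition was on a slide of its own, and on every slide the stressed hearts were in other array columns than the controls. Slide and condition, and column and stress, therefore cannot be told apart. The T10R1 slide was also scanned on another day than the rest. A level below is the log2 spot signal over the 75th percentile of its array, a difference is the mean level of stressed hearts minus that of control hearts in the same condition, and a gene is said to have risen or fallen only where limma's adjusted p, over all 27532 genes, was below 0.05.

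The acute phase response is the change in plasma proteins that follows injury, infection or other inflammation. In liver it is driven by cytokines of the IL-6 family, which signal through a shared receptor chain (encoded by Il6st), JAK kinases and the transcription factor STAT3, and by IL-1, which acts through Il1r1 and NF-kappaB, while glucocorticoids act together with both. Many of its genes are also transcribed outside the liver, in fibroblasts, macrophages, endothelium and fat, and Serpina3n and Lcn2 are known as genes that respond to inflammation in heart, brain and other organs. Because whole tissue was measured, more cells of a type and more RNA per cell cannot be told apart for any gene below.

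Promoter sequences of 7 of the 10 genes were in the table of RefSeq promoters (build GRCm38.p6), in 8 windows. The 250 bases before the start site are shown for Serpina3n and Lcn2, the genes with the largest differences, and for Socs3, a feedback target of STAT3, on the strand of the gene. Capitals mark matches to 4 motifs, searched on both strands, in which N is any base. These were TTCNNNGAA for STAT factors and TTGCNNAA for C/EBP factors. For NF-kappaB the motif was GGGA and CC with any 4 bases between them, and for the glucocorticoid receptor it was G, any base, ACA, any 3 bases, TGT, any base and C. The windows are chr12:104406458-104406707 on the plus strand for Serpina3n, chr2:32387740-32387989 on the minus strand for Lcn2 and chr11:117969367-117969616 on the minus strand for Socs3.
Serpina3n: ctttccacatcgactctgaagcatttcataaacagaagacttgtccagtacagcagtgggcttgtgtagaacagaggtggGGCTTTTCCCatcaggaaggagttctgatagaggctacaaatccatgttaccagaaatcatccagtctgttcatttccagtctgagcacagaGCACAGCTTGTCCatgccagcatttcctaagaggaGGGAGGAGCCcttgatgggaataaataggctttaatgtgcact
Lcn2: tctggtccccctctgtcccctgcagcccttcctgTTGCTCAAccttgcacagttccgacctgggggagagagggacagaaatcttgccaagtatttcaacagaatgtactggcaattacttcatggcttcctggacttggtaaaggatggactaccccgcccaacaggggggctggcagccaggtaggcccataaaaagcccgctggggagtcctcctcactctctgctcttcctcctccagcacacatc
Socs3: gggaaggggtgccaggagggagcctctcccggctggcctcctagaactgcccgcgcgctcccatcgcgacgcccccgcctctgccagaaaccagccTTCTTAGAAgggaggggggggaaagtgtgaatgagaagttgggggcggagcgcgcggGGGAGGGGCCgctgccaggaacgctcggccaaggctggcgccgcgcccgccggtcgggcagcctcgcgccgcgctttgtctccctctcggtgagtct

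The Serpina3n window held a match to the glucocorticoid receptor motif 78 bases before the start site, and NF-kappaB matches 170 and 43 bases before it, the first of them on the other strand. The glucocorticoid receptor motif was in 0.387% of all 32851 promoter windows of the same length, and NF-kappaB letters were in 17.6% of them. The Lcn2 window held a C/EBP match 216 bases before the start site, a motif found in 9.56% of all windows and also in those of Saa3 and Il1r1. The Socs3 window held a STAT match 154 bases and an NF-kappaB match 97 bases before the start site, and STAT letters were in 7.02% of all windows. Osmr was the other gene with an NF-kappaB match, and no motif was found in the Il4ra window. A match describes letters and does not show that a factor binds.

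Serpina3n encodes a secreted inhibitor of serine proteases, the mouse counterpart of human alpha-1-antichymotrypsin, and its probe lies at chr12:105651918-105651977 on mm9. It had levels of 1.46, 1.28, 0.32 and 0.02 in the T5R1 stressed hearts, against -1.63, -1.83, -1.68 and -1.70 in their controls. In T10R1 it had -0.02, -0.47, -0.88 and 0.21 in stressed hearts, against -1.58, -1.60, -1.93 and -1.59 in control hearts. Every stressed heart was above every control in both conditions with 1 day of rest, and the stressed hearts were spread over more than 1 log2 unit while the controls lay close together. After longer rest the groups overlapped. Levels were -2.15, -1.64, -1.72 and -1.41 in T5R10 stressed hearts and -2.12, -2.12, -1.62 and -1.71 in their controls. In T10R42 they were -1.91, -1.49, -1.43 and -1.36 in stressed hearts and -1.995, -1.70, -1.71 and -1.47 in controls.

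The Serpina3n differences were 2.48 ± 0.25 (SE) in T5R1, 0.16 ± 0.25 in T5R10, 1.38 ± 0.25 in T10R1 and 0.17 ± 0.25 in T10R42. In T5R1 and T10R1 these correspond to 5.58-fold and 2.61-fold higher signal. Each SE here and below comes from limma's spread over all 8 groups, so it does not describe the hearts of a single condition. The Serpina3n SD in T5R1 was 0.71 in stressed hearts and 0.08 in controls. Read as a time course, the stress difference was smaller by 2.32 ± 0.35 log2 units in T5R10 than in T5R1, and smaller by 1.21 ± 0.35 in T10R42 than in T10R1. With rest held at 1 day, it was smaller by 1.10 ± 0.35 after 10 than after 5 days of exposure. Without the 3 T5R10 arrays that the extraction software marked for evaluation (stressed hearts 1 and 2 and control heart 4), the Serpina3n difference in T5R10 was 0.39, and stressed and control hearts still overlapped. Across the 8 groups the order of mean levels began with T5R1 stressed hearts (0.77 ± 0.71, SD, n = 4) and T10R1 stressed hearts (-0.29 ± 0.48), which overlapped each other. No heart of the other 6 groups reached the lowest T10R1 stressed heart, and those 6 group means lay between -1.55 and -1.89 with overlap of each with the next. As background, of all 27532 genes 6.63% had all stressed hearts above all controls in T5R1 and 4.3% had so in T10R1.

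Lcn2 encodes lipocalin 2, a secreted carrier that binds bacterial iron chelators and is stored in neutrophil granules but also made by many tissues under inflammation. Its probe lies at chr2:32240199-32240258 on mm9. The levels in T5R1 were 2.74, 1.79, 1.78 and 1.33 in stressed hearts, against 0.14, -0.20, 0.23 and 0.01 in control hearts. In T10R1 they were 0.64, 0.69, 0.45 and 1.26 in stressed hearts, against 0.04, 0.18, -0.15 and -0.26 in control hearts. Stressed and control hearts did not overlap in these conditions. Lcn2 levels in T5R10 were 0.13, 0.30, 0.45 and 1.00 in stressed hearts and 0.21, 0.16, -0.25 and 0.36 in controls. In T10R42 they were 0.30, 0.05, -0.25 and 0.11 in stressed hearts and 0.36, 0.40, 0.26 and 0.21 in controls. In both of these conditions the groups overlapped, although 3 of the 4 T10R42 stressed hearts were below the lowest control.

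The Lcn2 differences were 1.87 ± 0.22 in T5R1 (3.65-fold), 0.35 ± 0.22 in T5R10, 0.81 ± 0.22 in T10R1 (1.75-fold) and -0.25 ± 0.22 in T10R42. The stress difference of Lcn2 was smaller by 1.51 ± 0.31 in T5R10 than in T5R1, by 1.06 ± 0.31 in T10R42 than in T10R1 and by 1.06 ± 0.31 in T10R1 than in T5R1. Without the 3 marked T5R10 arrays, the Lcn2 difference in T5R10 was 0.69, both stressed hearts that were left lay above the 3 controls that were left, and the T5R10 minus T5R1 change was -1.18. In the order of group means, T5R1 stressed hearts (1.91 ± 0.59, SD) stood alone at the top, with no overlap with the next group. T10R1 stressed hearts followed (0.76 ± 0.35) and overlapped T5R10 stressed hearts (0.47 ± 0.38). Both genes therefore had their highest group mean in T5R1 stressed hearts, and in T10R42 their stressed and control hearts overlapped.

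**Figure D1:**
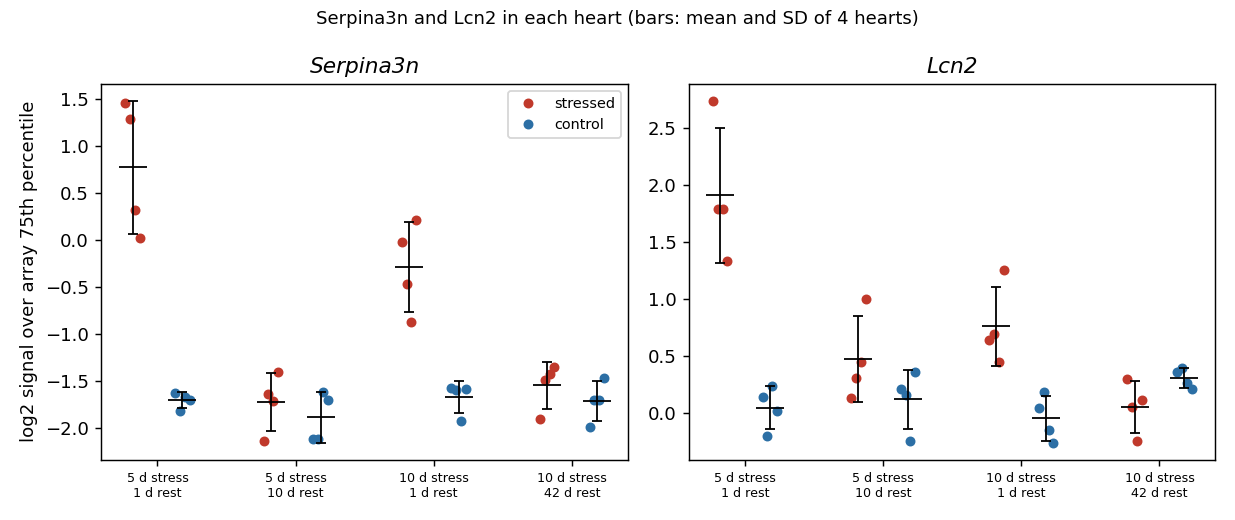
Levels of Serpina3n and Lcn2 (log2 signal over the array's 75th percentile) in each of 32 hearts, stressed (red) left of control (blue), by condition. Points are hearts, and bars are the mean and SD of 4 hearts. Stressed hearts lie above all controls in the 2 conditions with 1 day of rest, with Serpina3n means of 0.77 (T5R1) and -0.29 (T10R1).

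Likeness was ranked among 15884 genes that had an official symbol, other than predicted-gene and clone names, and a value on every array. The genes whose levels followed Serpina3n most closely over the 32 hearts were Ms4a7, a macrophage membrane gene (Pearson r = 0.939), Fbn1, which encodes the matrix protein fibrillin-1 (0.935), the chemokine gene Ccl8 (0.931), Krtap11-1 (0.928) and Cd300c2 (0.926). Their T5R1 differences were 1.94, 1.96, 2.49, 1.82 and 1.22, and their T10R1 differences were 1.46, 0.96, 1.55, 1.15 and 0.80. Those most like Lcn2 were Sprr1a, a stress gene of cardiomyocytes (0.917), Krtap11-1 (0.914), the collagen crosslinking enzyme Loxl2 (0.908), Col1a2 (0.902) and the metalloproteinase inhibitor Timp1 (0.893). Serpina3n and Lcn2 correlated with each other at 0.88, which ranked Serpina3n at 6 for Lcn2 and Lcn2 at 28 for Serpina3n. These likenesses reflect the group differences shared by the 32 hearts and carry no test. With each heart set against the mean of its own group, the genes most like Serpina3n were Lrmp (0.822), Clec4a1 (0.794), the immunoglobulin receptor gene Fcgr3 (0.789), Krtap11-1 (0.783) and Akr1b8 (0.78). Those most like Lcn2 within groups were Sprr1a (0.749), Tssc4 (0.745), Rcn3 (0.737), Fcer1g (0.729) and Col1a2 (0.728).

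Saa3, Hp, Orm1 and Lbp are the other acute phase proteins of the set, and none of them passed the test in any condition. Of the 8 genes with a test, 1 rose in T5R1, where 13.7% of all genes were called in either direction, 5.3% as higher and 8.43% as lower, and 1 of the 8 had an unadjusted p below 0.05, beside 29.5% of all genes. None of the 8 was called by limma in T5R10 (background 0.0763%), T10R1 (1.13%) or T10R42 (0.897%), and their counts at an unadjusted p below 0.05 were 0, 2 and 1, beside 14%, 13.1% and 18.8% of all genes. In T10R1, 0.774% of all genes were called as higher and 0.36% as lower. These backgrounds rest on few hearts. The 21 calls of T5R10 became 606, 136 and 57 without stressed heart 2, 1 or 4, 72 without control heart 3, and 5 to 8 without control heart 1, 2 or 4. The 312 calls of T10R1 became 86 and 146 without stressed heart 1 or 4 and 116 to 185 without any 1 control heart. The 247 calls of T10R42 became 1444 without stressed heart 2 and 34 to 131 without any other heart. The 3778 calls of T5R1 became 2177 without stressed heart 1 and 2412 without control heart 2. The median difference of the 8 was 0.17 in T5R1, 0.09 in T5R10, -0.26 in T10R1 and 0.15 in T10R42, beside medians over all genes of -0.12, -0.02, 0.00011 and -0.03. No call was made either for the change of the stress difference with rest or exposure. The backgrounds were 2.49% of genes for T5R10 minus T5R1, 4.12% for T10R42 minus T10R1 and 0.592% for T10R1 minus T5R1, and the counts of the 8 at an unadjusted p below 0.05 were 1, 2 and 3, beside 17.2%, 22.9% and 17.8% of all genes.

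Saa3 encodes the serum amyloid A of inflamed tissue and macrophages in mice. It was dim, well above background on 19 of 32 arrays. Its levels in T5R1 were -4.62, -1.37, -3.35 and -4.51 in stressed hearts and -4.80, -4.89, -3.57 and -5.23 in controls, so stressed heart 2 stood above the rest and the groups overlapped. The Saa3 difference was 1.16 ± 0.60 (adjusted p = 0.195), and it was 0.46 without stressed heart 2. In T10R1 the difference was -0.76 ± 0.60 (adjusted p = 0.637) over stressed levels from -6.65 to -2.96 and control levels from -4.27 to -3.60. In T10R42 Saa3 was well above background on 2 stressed arrays and no control array, and its difference of 0.15 ± 0.60 (adjusted p = 0.923) gives no direction. The difference in T5R10 was 0.43 ± 0.60. The paralogue Saa1, well above background on all arrays, differed by 0.14 ± 0.18 in T5R1 and by 0.47 ± 0.18 in T10R1 (adjusted p = 0.634 and 0.247). In T10R1 the 4 stressed hearts were all above the controls for Saa1, and Saa2 was above background on 0 of 32 arrays.

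Hp encodes haptoglobin, which binds free haemoglobin. Its levels in T5R1 were 1.34, 3.13, 0.001 and 2.35 in stressed hearts, against 2.69, 2.75, 2.68 and 2.69 in control hearts. The controls lay within 0.1 log2 unit of each other, and the stressed hearts spread around them, 3 below and 1 above. The Hp difference was -0.9998 ± 0.67 (adjusted p = 0.321), and it ranged from -1.47 to -0.43 when a heart was left out. The Hp spread was also wide in T10R42, where stressed hearts had 0.72, 0.61, 3.48 and 3.92 and controls 4.06, 2.67, 1.85 and 1.68. Differences were 0.29 ± 0.67 in T5R10, -0.59 ± 0.67 in T10R1 and -0.38 ± 0.67 in T10R42, none of which passed the test.

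The spread of Hp ran with markers of fat. Within groups, Hp correlated with the mean level of 8 adipocyte markers (Adipoq, Plin1, Cfd, Cidec, Fabp4, Retn, Pck1 and Ucp1) at Pearson's r = 0.938 and Spearman's rho = 0.909 over 32 hearts. By permutation of hearts within groups both had p = 1e-05, the smallest that 100000 permutations can give, and 0.0013 after Benjamini-Hochberg adjustment over 130 relations of 10 genes with 13 marker lists. The r was 0.917 without the 2 hearts farthest from the median. It was the only one of the 130 with an adjusted p below 0.05. T5R1 stressed heart 3, the lowest in Hp, was also the lowest of its group in the marker mean, at -1.79, while the other stressed hearts of that condition had 1.26, 2.06 and 1.97 and the controls 2.60, 2.16, 1.82 and 1.40. All 8 adipocyte markers were measured lower in stressed hearts in T5R1 (median -1.20) and in T10R1 (-1.36), and 8 of 8 were measured higher in T5R10 (0.43), but none was called in any of them. The summed signal of the 8 markers, relative to the array's 75th percentile, was 144.1 to 190.2 in T5R1 stressed hearts and 168.2 to 210.9 in their controls. The part of fat in the Hp values was not tested.

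**Figure D2:**
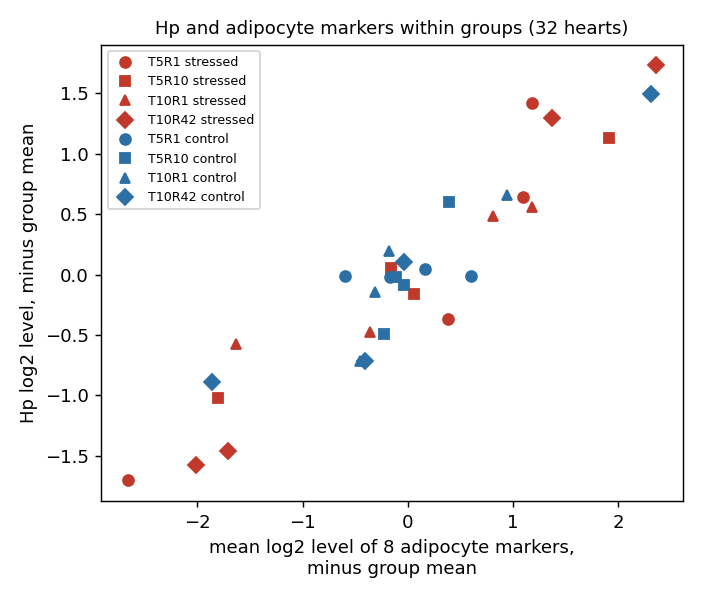
Level of Hp in each heart minus the mean of its group (y axis, log2) against the mean level of 8 adipocyte markers minus the mean of its group (x axis, log2), for 32 hearts. Colour gives stressed (red) or control (blue) and the symbol gives the condition. Points of all 8 groups lie along one rising band, with r = 0.938.

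Orm1 encodes orosomucoid, a plasma lipocalin, and was near background, measured on 16 of 32 arrays. Its levels ran from -5.85 to -2.79 in T5R1 stressed hearts and from -5.24 to -3.51 in controls, and the differences in the 4 conditions were -0.16, 0.03, -0.45 and 0.80, each ± 0.75. No direction could be read at this spread. The paralogue Orm2 differed by -0.18 ± 0.50 in T5R1 and -0.51 ± 0.50 in T10R1, also with overlap.

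Lbp encodes the plasma protein that hands bacterial lipopolysaccharide to the CD14 and TLR4 receptor. In T10R1 it had -0.49, -0.20, -0.30 and -0.19 in stressed hearts, against -0.73, -0.61, -0.86 and -0.98 in control hearts. All stressed hearts were above all controls, and the difference was 0.50 ± 0.13 (1.41-fold, 95% interval 0.23 to 0.76) with limma's adjusted p at 0.0562. It passed the threshold with normexp background correction (adjusted p = 0.0393) and with the authors' value table (0.043), and in the other alternatives its adjusted p ranged from 0.0533 to 0.162. The Lbp differences were 0.18 ± 0.13 in T5R1, 0.16 ± 0.13 in T5R10 and -0.05 ± 0.13 in T10R42, where stressed and control hearts overlapped. The stress difference of Lbp was lower by 0.55 ± 0.18 in T10R42 than in T10R1 (adjusted p = 0.0789).

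Osmr, Il1r1 and Il4ra encode cytokine receptors, and Socs3 encodes the inhibitor that STAT3 induces and that shuts off IL-6 family signalling. Il1r1, the receptor through which IL-1 acts, rose in T5R1. It had 0.46, 0.18, 0.04 and -0.03 in stressed hearts, against -0.23, -0.11, -0.19 and -0.28 in control hearts, with no overlap. The difference was 0.36 ± 0.11 (1.28-fold, limma's adjusted p = 0.0294). The Il1r1 call was lost when T5R1 was fitted on its own (adjusted p = 0.0816) and when control heart 1, 3 or 4 or stressed heart 1 or 2 was left out (0.0571 to 0.146). With the median of all genes at -0.12 in T5R1, the size of the difference was about the same after quantile normalisation (0.38), which brought that median to -0.03. Differences of Il1r1 were 0.02 ± 0.11 in T5R10, -0.05 ± 0.11 in T10R1 and 0.26 ± 0.11 in T10R42 (adjusted p = 0.196), where stressed hearts had 0.24, -0.16, -0.01 and 0.05 and controls -0.39, -0.15, -0.36 and -0.02. The T10R1 minus T5R1 difference of -0.41 ± 0.16 had an adjusted p of 0.174.

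Osmr encodes the receptor chain for oncostatin M, which induces acute phase genes in several cell types. Its levels ran from 1.28 to 2.04 over all hearts, and its differences were 0.16, -0.06, -0.08 and 0.14 in T5R1, T5R10, T10R1 and T10R42 (each ± 0.11), all with overlap. T5R1 stressed heart 1, at 2.04, was above every T5R1 control (1.42 to 1.57), and stressed heart 4, at 1.29, was below them. Over group means T10R1 control and stressed hearts were highest, and each group overlapped the next in the order. This order compares hearts across slides and scan days, which cannot be told apart from condition.

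Socs3 had 0.36, 0.36, 0.23 and 0.55 in T10R1 stressed hearts, against 1.10, 0.72, 2.92 and 0.54 in control hearts. Control heart 3 stood far above the others, and the groups overlapped by the highest stressed and the lowest control heart. The difference was -0.94 ± 0.31 (adjusted p = 0.149) with all hearts and -0.41 (0.357) without control heart 3. Socs3 differences were 0.18 ± 0.31 in T5R1, -0.19 ± 0.31 in T5R10 and 0.24 ± 0.31 in T10R42. Socs3 was not called by limma in any condition, which does not show that it was unchanged.

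Il4ra encodes the receptor chain shared by IL-4 and IL-13 and is induced by IL-6 in mouse macrophages. Its brighter probe differed by -0.01, 0.21, 0.12 and -0.12 in the 4 conditions (each ± 0.15). The second Il4ra probe gave 0.06, -0.25, -0.56 and 0.06, so the probes disagreed in sign in all 4 conditions. No direction was given by the data for Il4ra.

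**Figure D3:**
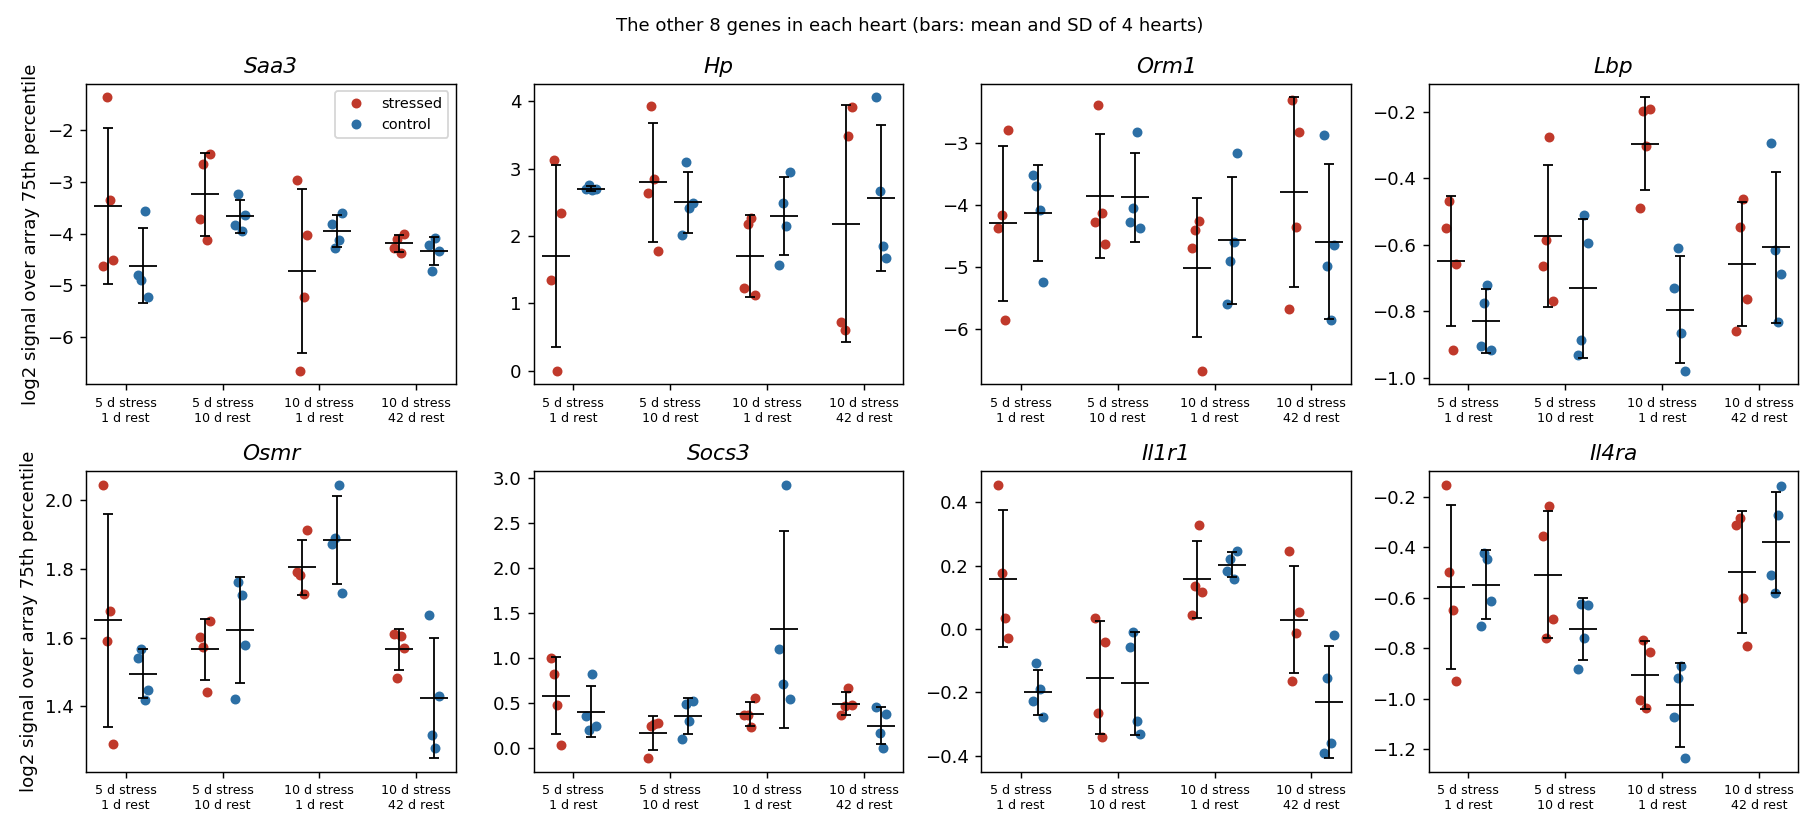
Levels (log2 signal over the array's 75th percentile) of the other 8 genes in each heart, stressed (red) left of control (blue), by condition. Points are hearts, and bars are the mean and SD of 4 hearts, each panel having its own y axis. Stressed and control hearts are separate for Il1r1 in T5R1 and Lbp in T10R1, and the Socs3 control heart of T10R1 at 2.92 stands apart.

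**Figure D4:**
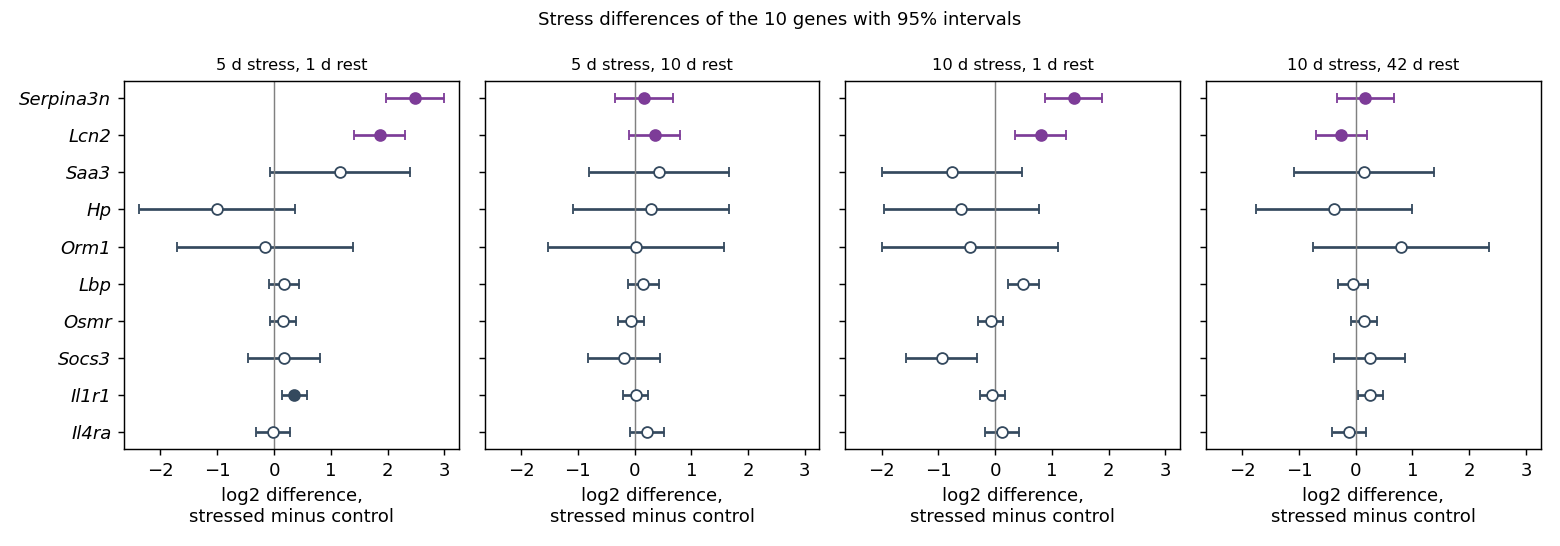
Stressed minus control difference (log2) of each of the 10 genes in the 4 conditions, with 95% intervals from limma. Purple points are Serpina3n and Lcn2, which were chosen on these values and carry no test. Their intervals are drawn as a description, and whether they reach 0 is not a test. A filled dark point has an adjusted p below 0.05 (Il1r1 in T5R1). The purple points lie at 2.48 and 1.87 in T5R1 and nearer 0 after longer rest.

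Within groups, none of the 45 pairs of the 10 genes correlated with an adjusted permutation p below 0.05. The pair Serpina3n and Lcn2 had r = 0.559 and rho = 0.316 (p = 0.0288 and 0.153, adjusted 0.432 and 0.497), with r = 0.314 without the 2 farthest hearts. Osmr and Socs3 had r = 0.515 (p = 0.00372, adjusted 0.167) and rho = 0.462 (adjusted 0.385).

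Genes of these pathways were read from lists, some of which also hold genes of the set described above. Serpina3n and Lcn2 were left out of the counts. The counts stand beside 13.7% of all genes called in T5R1 (5.3% higher and 8.43% lower) and 1.13% in T10R1. Over all genes, 61.4% of T5R1 calls were lower, against 36.5% with quantile normalisation and 38.4% with the authors' value table. Whether calls of single genes of the pathway and marker lists, small T5R1 falls among them, hold under such other processing was not tested. Of the 14 IL-6 family cytokines and receptors described here, Osmr among them, 2 fell in T5R1 and none was called by limma in T10R1 (3 at an unadjusted p below 0.05). The T5R1 share of 14.3% is near that of all genes. In T5R1, 13 of the 14 were measured lower (median -0.24, all genes -0.12). In T10R1, 9 of the 14 were (median -0.05, all genes 0.00011). Cntfr, the receptor that binds ciliary neurotrophic factor, fell by 0.83 and the IL-11 receptor gene Il11ra1 fell by 0.36 in T5R1 (adjusted p = 0.0141 and 0.0368). The ligand Osm differed by -0.22 ± 0.33 in T5R1 and 0.45 ± 0.33 in T10R1, and the receptors Il6ra and Il6st by -0.21 and -0.13 in T5R1 and -0.06 and 0.04 in T10R1. The Lifr differences of -0.21 in T5R1 and -0.28 in T10R1 had limma adjusted p of 0.0905 and 0.0917. The stress difference of Lifr was higher by 0.49 ± 0.12 in T10R42 than in T10R1 (adjusted p = 0.0236), and that of Il11 changed by -0.86 ± 0.25 (0.0468). For the cardiotrophin gene Ctf1 it was higher by 0.65 ± 0.16 in T5R10 than in T5R1 (0.0284). Il6 itself was well above background on 6 of 32 arrays and was not tested.

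**Figure D5:**
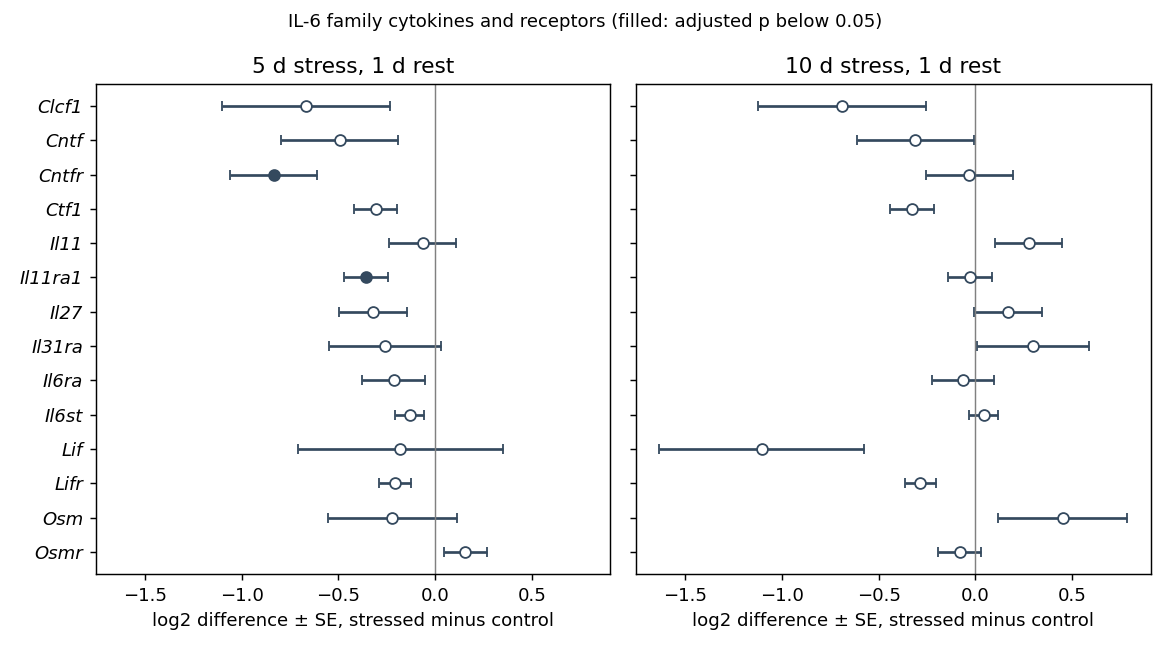
Stressed minus control difference (log2, points) with its SE (bars) for the 14 IL-6 family genes, in T5R1 (left) and T10R1 (right). Filled points have an adjusted p below 0.05. Cntfr (-0.83) and Il11ra1 (-0.36) are filled in T5R1, and no point is filled in T10R1.

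Of 19 genes of JAK-STAT3 signalling and its targets, 1 rose and 2 fell in T5R1 and none was called in T10R1 (6 at an unadjusted p below 0.05). The T5R1 share of 15.8% is near the 13.7% of all genes. Timp1 rose by 2.80 ± 0.32 in T5R1 (adjusted p = 2.63e-06), and its stress difference was smaller by 2.26 ± 0.46 in T5R10 than in T5R1 (0.00772). Pias3, an inhibitor of STAT3, fell by 0.56 and the phosphatase gene Ptpn11 fell by 0.27 in T5R1. The T5R1 shares of the next 3 lists were 10% (IL-1), 4.55% (NF-kappaB) and 25% (lipopolysaccharide), each resting on 1 or 2 genes. Of 10 genes of the IL-1 family and its receptors, Il1r1 was the 1 called in T5R1, and none was called in T10R1 (0 at an unadjusted p below 0.05). Il1rl1, the IL-33 receptor, differed by 0.02 in T5R1 and -0.16 in T10R1, and Il1rap and Il1rn, both dim, by -0.06 and -0.07 in T5R1. Of 22 NF-kappaB genes, Relb rose by 0.42 in T5R1 (adjusted p = 0.0187), and none was called in T10R1 (3 at an unadjusted p below 0.05). Of 8 genes of lipopolysaccharide recognition, Ly86, whose product pairs with CD180, rose by 0.88 (adjusted p = 0.00632) and Tlr2 by 0.57 (0.0265, with overlap) in T5R1, and none was called in T10R1 (4 unadjusted). Cd14, Tlr4 and Ly96 differed by 0.11, -0.05 and 0.24 in T5R1 and by 0.12, -0.11 and 0.23 in T10R1.

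Of 12 genes of the IL-4 and IL-13 pathway, 3 rose and 1 fell in T5R1 (33.3%, all genes 13.7%) and 1 rose in T10R1. Mrc1, which encodes the macrophage mannose receptor, rose by 0.83, the shared receptor chain gene Il2rg by 0.51 and Il13ra1 by 0.43, while Retnla fell by 0.81 with overlap. In T10R1 Il2rg rose by 0.44 (adjusted p = 0.0402). Il4 and Il13 were well above background on 1 and 0 of 32 arrays.

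The list of plasma acute phase proteins that rise in inflammation held 21 genes, Saa3, Hp, Orm1 and Lbp among them, without Serpina3n and Lcn2. Of the 21, 3 rose in T5R1 and none fell (14.3%, all genes 13.7%), with a median of -0.11. These were the metallothionein gene Mt2 (1.05 ± 0.35, adjusted p = 0.0435), complement factor B gene Cfb (0.75 ± 0.21, 0.0155) and Itih3, which encodes a chain of inter-alpha-trypsin inhibitor. Itih3 was not well above background on any control array and was so on 3 stressed arrays, which gives at least 1.05-fold (adjusted p = 0.038). Without Itih3, 2 of 20 rose (10%), beside 5.3% of all genes. In T10R1 Serping1, the C1 inhibitor gene, rose by 0.45 ± 0.10 (adjusted p = 0.0192), and it was the 1 gene of the 21 called. C3 and Cp, both expressed on all arrays, differed by 0.07 and -0.12 in T5R1. No gene of the 9 plasma proteins that fall in the acute phase was called in T5R1 or T10R1 (1 unadjusted in each), and 9 of 9 were measured lower in T5R1 (median -0.31, all genes -0.12) but 6 of 9 higher in T10R1 (median 0.15). The 9 hepatocyte and 9 cardiomyocyte markers were also all measured lower in T5R1. The hepatocyte markers share Apoa2, Ttr, Ahsg and Cyp2e1 with these plasma proteins, so the 2 lists are not separate observations. Of the 20 genes of haemoglobin, haem and iron handling, 2 rose and 2 fell in T5R1 (20%). The ferritin light chain gene Ftl1 rose by 0.40 and the heavy chain gene Fth1 fell by 0.24, Blvrb rose by 0.46 and Hamp2 fell by 0.73. Lrp1 rose by 0.39 in T10R1. No gene of the 11 pathway lists was called by limma in T5R10 or T10R42, where 0 to 2 and 0 to 4 genes of a list had an unadjusted p below 0.05.

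Serpina3n belongs to a cluster of near copies on chromosome 12, so part of its signal could come from a relative. Of the 15 other Serpina genes measured, 1 rose and 2 fell in T5R1 (20%, all genes 13.7%) and none was called in T10R1 (0 at an unadjusted p below 0.05). Serpina3i was well above background on 4 stressed arrays and no control array in T5R1, at least 2.67-fold brighter (adjusted p = 0.00255), and whether its probe detects Serpina3n RNA was not tested. Serpina3c fell by 0.85 with overlap and Serpina10 fell by 0.38. Serpina3g, Serpina3h, Serpina3f and Serpina3m differed by 0.20, -0.35, 0.57 and -0.76 in T5R1, none called, and Serpina1a by -0.11. Of the 11 lipocalins and Lcn2 receptors measured besides Lcn2, Orm1 among them, none was called by limma in T5R1 or T10R1 (2 and 1 unadjusted). The Lcn2 receptor gene Slc22a17 differed by -0.12 ± 0.13 in T5R1 and 0.15 ± 0.13 in T10R1, and Apod by 0.36 ± 0.12 in T5R1 (adjusted p = 0.0556).

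Markers of some cell types that can make these genes were called in the same conditions, and those of others were not. Of 9 endothelial markers (medians -0.13 and 0.05) and 8 adipocyte markers (medians -1.20 and -1.36), none was called in T5R1 or T10R1. All 8 adipocyte markers were measured lower in both conditions, so a missing call does not show that they were unchanged. Of 5 red cell markers, 3 rose in T5R1 (median 1.92), beside 5.3% of all genes. It was 2 of 4 without the 1 that was well above background on no control array there. No red cell marker was called in T10R1 (median 1.20). The summed red cell signal overlapped in T5R1, at 826.8 to 1648.2 in stressed hearts and 876.9 to 1109.5 in controls. Of 11 fibroblast markers, 6 rose in T5R1 and 7 in T10R1, beside 5.3% and 0.774% of all genes. The fibroblast list holds Col1a1, Col1a2, Postn and Cthrc1. Like all lists here, it was chosen with earlier results of these data known, so the shares are only a description. Cthrc1, 1 of those that rose, was well above background on no control array and passed the filter on dim probes only through stressed hearts, and without it 5 of 10 and 6 of 10 rose. The summed fibroblast signal, relative to the 75th percentile, was 641.4 to 988.7 in T5R1 stressed hearts against 552.7 to 613.8 in controls. In T10R1 it was 687.2 to 892.4 in stressed hearts against 549.5 to 580.2 in controls. Of 13 monocyte and macrophage markers, 7 rose in T5R1, among them Cd68 (1.17) and Cx3cr1 (1.08), and 1 rose in T10R1. Their mean log2 level was 1.26 to 1.99 in T5R1 stressed hearts against 0.91 to 1.06 in controls, with no overlap, and 1.24 to 1.68 in T10R1 stressed hearts against 0.96 to 1.26 in controls, with overlap. Their summed signal, in which the brightest probes weigh most, overlapped in T5R1, at 168.5 to 184.9 in stressed hearts and 176.2 to 205.9 in controls. Of 8 neutrophil markers measured, S100a8, S100a9 and Retnlg rose in T5R1, beside 5.3% of all genes. Retnlg was well above background on no control array there, and without it 2 of 7 rose. No neutrophil marker was called in T10R1 (0 unadjusted). The neutrophil sums were 100.3 to 136.4 in T5R1 stressed hearts and 130.4 to 157.8 in controls. The granule markers Mmp8, Ngp and Mmp9 were well above background on 0, 1 and 1 of 32 arrays. Of 9 hepatocyte markers measured, 2 fell in T5R1, beside 8.43% of all genes, and none was called in T10R1 (0 unadjusted). The hepatocyte sums were 11.8 to 18.2 in T5R1 stressed hearts and 15.2 to 20.8 in controls, and Alb was above background on 5 of 32 arrays. The mean log2 level of the hepatocyte markers was -1.28 to -0.83 in T5R1 stressed hearts and -0.72 to -0.52 in controls.

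Within groups, Serpina3n correlated with the macrophage marker mean at r = 0.736 and rho = 0.55 (p = 0.00471 and 0.0198, adjusted 0.109 and 0.215) and with the fibroblast marker mean at r = 0.707 and rho = 0.586 (p = 0.00673 and 0.0101, adjusted 0.125 and 0.199). Lcn2 correlated with the macrophage mean at r = 0.648 and rho = 0.337 (adjusted 0.148 and 0.42) and with the fibroblast mean at r = 0.659 and rho = 0.467 (adjusted 0.148 and 0.25). Without the 2 hearts farthest from the gene's median, the Serpina3n r was 0.626 with the macrophage and 0.634 with the fibroblast mean. For Lcn2 these values were 0.403 and 0.466. None of these 4 relations passed the adjustment over 130 relations. The part of these cell types in the Serpina3n and Lcn2 values was not tested.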

How the data were processed

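Levels came from 1-colour Agilent scanner files of 32 hearts. Per the file headers, Feature Extraction 10.7.3.1 made the deposited intensity values (processed signal, background-subtracted), and the same deposited files hold other values, which are 0 or 1 flags for spots well above background, saturated spots and outliers. Log2 values in the table of the authors served as an alternative. Outlier spots were left out and spots of a probe averaged. The log2 signal was set against the 75th percentile of all non-control spots of its array. Probes had to be well above background on 3 of the 4 arrays of some group, with no more than 4 arrays missing, and the brightest probe stood for a gene. limma 3.58.1 (R 4.3.3) fitted 8 group means over 32 arrays (24 residual and 2.28 prior degrees of freedom), with Benjamini-Hochberg adjustment over 27532 genes and a threshold of 0.05. The fit was tested on simulated data. The members and all gene lists were chosen with earlier results of these data known.

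Named genes were all 10 members, up to 3 called genes of each pathway list with the largest change in T5R1 and in T10R1, the relatives and receptors of the members, and the 5 genes most like Serpina3n and Lcn2. Lists are given without 1 gene of the IL-6 family, which is not reported here. C3, Cp, Apod, Fth1, Il11, Ctf1 and single marker genes were named after their values were seen. Permutation tests moved hearts within groups 100000 times. Each array is a separate mouse, and arrays of a group correlated at 0.9821 to 0.9943. Replicate numbers run 1 to 4 in every group, and deviations of the 16 same-numbered pairs correlated from -0.266 to 0.214, 5 of them over 0.1, so the numbers were not taken as pairs. Alternatives were normexp background correction with an offset of 50, quantile normalisation, the authors' value table, other filters, the mean over probes, each comparison fitted on its own, a replicate block, slide row as a covariate, leaving out 3 T5R10 arrays marked for evaluation by the extraction software, and leaving out each heart. The alternatives were read for the members and for the counts over all genes, not for the other genes of the lists. Promoters came from RefSeq (GRCm38.p6), and probe positions are those of the array design (mm9).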

Additional observations from a re-analysis of the deposited data

Results flagged for a closer look

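In groups of 4 hearts, a heart was singled out when its gap to the nearest other heart, divided by the range of the group, passed the 95% critical value of Dixon's test. This was met in 3 of 80 groups (10 genes in 8 groups), and chance alone gives about 1 in 20 groups. Serpina3n was -1.93 in T10R1 control heart 3, below the next at -1.60. Hp was 2.75 in T5R1 control heart 2, above the next at 2.69, in a group that otherwise lay within a few hundredths of a log2 unit. Socs3 was -0.11 in T5R10 stressed heart 1, below the next at 0.24, and its array is 1 of 3 marked for evaluation by the extraction software.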

How the results depend on the processing

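The count of called genes among the 8 with a test was 1 in T10R1 (Lbp) with normexp and with the authors' value table, against 0. In T5R1 it was 0 with T5R1 fitted alone and 0 with the replicate block, against 1, and 0 to 1 when a heart was left out. Under the replicate block the Il1r1 difference was 0.36 with an adjusted p of 0.0556, and no other call among the 8 changed. The Serpina3n difference was 2.05 in T5R1 with normexp, and -1.90 for T5R10 minus T5R1. Without the 3 marked T5R10 arrays, Lcn2 was 0.69 in T5R10 and -1.18 for T5R10 minus T5R1, and Serpina3n was 0.39 in T5R10.

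Signs turned only among differences that were not called. With normexp, Il4ra was 0.00019 in T5R1, Orm1 -0.015 in T5R10 and 0.065 for T10R1 minus T5R1, and Saa3 -0.075 in T10R42. With quantile normalisation, Orm1 was 0.031 and Il4ra 0.041 in T5R1. With the authors' table, Il4ra was 0.0086 in T5R1 and Lbp 0.019 in T10R42. With the mean of both probes, Il4ra was 0.028 in T5R1, -0.020 in T5R10, -0.22 in T10R1, -0.048 for T5R10 minus T5R1, 0.19 for T10R42 minus T10R1 and -0.25 for T10R1 minus T5R1. Without the 3 marked arrays, Hp was -0.20, Orm1 -0.66 and Il1r1 -0.073 in T5R10, Orm1 -0.50 and Lbp 0.072 for T5R10 minus T5R1.

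Leaving out a heart gave ranges through 0 for Hp of -0.96 to 0.14 in T10R42, -0.083 to 0.63 in T5R10, -0.37 to 0.73 for T10R42 minus T10R1 and -0.16 to 0.88 for T10R1 minus T5R1. For Orm1 they were -0.66 to 0.36 in T5R1, -0.46 to 0.38 in T5R10, -0.79 to 0.11 in T10R1, -0.33 to 0.69 for T5R10 minus T5R1 and -0.80 to 0.27 for T10R1 minus T5R1. They were -0.045 to 0.081 for Il1r1 in T5R10, -0.14 to 0.11 for Il4ra in T5R1, -0.13 to 0.054 for Lbp in T10R42 and -0.12 to 0.049 for Lbp for T5R10 minus T5R1. Serpina3n kept 2.25 to 2.73 in T5R1 and 1.22 to 1.58 in T10R1, and Lcn2 1.59 to 2.06 and 0.64 to 0.91.

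Over all genes, 61.4% of T5R1 calls were lower, against 36.5% with quantile normalisation and 38.4% with the authors' table. T10R1 had 312 calls, and 4 when fitted alone. T5R10 had 21, and 1088 without the marked arrays. Orm1 gave no value under the stricter filter. The cause of these changes was not tested. Calls of list genes outside the set were not rechecked in these settings, so the stability of small T5R1 falls among them was not tested. Saa3 and Orm1 lay near background, so their values are the least precise.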
